A study of Arabidopsis thaliana with 23 samples.

Results

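Of the 428 mature miRNA rows in the small RNA table, 61 belonged to 12 families known for their roles in plant development, namely miR159, miR160, miR164, miR165, miR166, miR167, miR171, miR172, miR319, miR393, miR394 and miR396. Rows were taken by the number in the miRNA name alone, with the 5p and 3p arms of a hairpin kept apart. Of these 61 rows, 22 carried 5p in their name, 22 carried 3p and 17 carried no arm. A mean of at least 1 RPM (reads per 1000000 reads of the library) over the 12 small RNA libraries was reached by 59 of them, and the 2 rows below it were miR172d-5p with a mean of 0.338 RPM and miR394b-3p with a mean of 0.216 RPM.

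The libraries came from whole Arabidopsis seedlings of the wild type, which the series' design text calls gl1, and of sos2-2, a mutant of SOS2, the kinase of the salt overly sensitive pathway of sodium export. All 4 groups had spent 2 days in the cold and then 10 days at 22 °C in constant light on MS medium with 3% sucrose. Both salt groups were then held for 12 hours with 100 mM NaCl in liquid MS, and the word salt below stands for that whole step. Whether the MS groups were moved into liquid, and whether sos2-2 carries the gl1 background, is not stated, so the medium's salt and the transfer itself cannot be told apart as sources of a difference. Each group had 3 small RNA libraries and 3 mRNA libraries, except that 2 mRNA libraries were analysed for sos2-2 on MS.

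A plant miRNA is cut from a hairpin precursor as a duplex, of which the guide arm is loaded into an ARGONAUTE protein while the other, passenger arm is usually degraded. The guide then pairs along nearly its whole length with a target mRNA and leads to its cleavage or to less translation. In these families most targets are transcription factors of meristems, leaves, flowers and roots, and others encode F-box proteins that act as auxin receptors or in the meristem.

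The mature sequences below, from the RefSeq annotation of TAIR10.1, show which rows can bind the same targets. Capitals mark the seed, bases 2 to 8 counted from the 5′ end. Among the 61 rows there were 42 distinct mature sequences and 32 distinct seeds. The miR159 and miR319 guides come from related families with different seeds, and the guides of miR165 and miR166 share a seed.
miR159a: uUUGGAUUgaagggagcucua
miR319a: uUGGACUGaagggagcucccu
miR165a-3p: uCGGACCAggcuucauccccc
miR166a-3p: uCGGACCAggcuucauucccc
Those that target auxin response factors or auxin receptors are miR160, miR167 and miR393. The shared seed of miR167a and miR167b is not that of miR167c, whose annotated sequence holds nearly the same stretch shifted by 1 base.
miR160a-5p: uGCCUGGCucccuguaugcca
miR167a-5p: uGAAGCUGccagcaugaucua
miR167c-5p: uAAGCUGCcagcaugaucuug
miR393a-5p: uCCAAAGGgaucgcauugaucc
The guides of miR164, miR171, miR172, miR394 and miR396 pair with mRNAs of NAC, GRAS, AP2-type, F-box and GRF proteins.
miR164b-5p: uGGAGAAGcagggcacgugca
miR171a-3p: uGAUUGAGccgcgccaauauc
miR172b-3p: aGAAUCUUgaugaugcugcau
miR394a: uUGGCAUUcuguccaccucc
miR396b-5p: uUCCACAGcuuucuugaacuu
The 4 sequences that follow are arms opposite to the guide whose values are given below.
miR164c-3p: cACGUGUUcuacuacuccaac
miR164b-3p: cAUGUGCCcaucuucaccauc
miR167c-3p: uAGGUCAUgcugguaguuucacc
miR393a-3p: aUCAUGCUaucucuuuggauu

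Length was 21 bases in 53 of the 61 rows, 20 bases in 4, 22 bases in 3 and 23 bases in 1, and 36 rows began with U. A further limit on the rows is shared sequence. In 32 rows the whole mature sequence was that of at least 1 other row, for example in the 7 miR166 guide rows, and reads of such rows cannot be told apart by sequence. The 39 hairpin genes were annotated as overlapping no other gene on their own strand, and 1 of them, that of miR165a, overlapped a gene on the opposite strand.

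Library totals were 16690750 to 19644812 reads, so 1 RPM stood for 16.7 to 19.6 reads. All listed miRNAs together made up 83725 to 110760 RPM, with the lowest value in wild type on MS, replicate 1. The 61 rows held 36.3% to 41.9% of that sum, with group means of 38.6% ± 0.887 (wild type on MS), 39.2% ± 2.38 (wild type with NaCl), 37.2% ± 0.681 in the mutant on MS and 37.9% ± 1.40 in the mutant with NaCl (SD over 3 libraries each). SOS2 mRNA (chromosome 5, 13634399 to 13638375) lay between 0.818 and 1.36 TPM (transcripts per 1000000) in the 11 mRNA libraries. On MS it had 1.17, 0.880 and 1.21 TPM in wild type and 1.36 and 1.24 TPM in sos2-2, which was higher without overlap, and in NaCl the genotypes overlapped. The shoot markers RBCS1A, LHCB1.1 and LHCB2.1 and the root markers PYK10, COBL9 and EXPA7 were all above 0 in every mRNA library. Summed, the shoot markers reached 8074 to 9869 TPM (wild type on MS), 2659 to 5708 TPM (wild type with NaCl), 3987 to 4675 TPM in the mutant on MS and 4003 to 7013 TPM in the mutant with NaCl, and the root markers 609 to 906, 676 to 858, 597 to 613 and 518 to 713 TPM in the same order. Most of the shoot sum was RBCS1A and most of the root sum PYK10. The other markers did not all follow them. On MS, LHCB1.1 overlapped between the genotypes (437, 703 and 457 TPM in wild type, 270 and 460 TPM in sos2-2). So did LHCB2.1 (306, 424 and 257 against 358 and 509 TPM). EXPA7 was higher in sos2-2 (1.26, 1.07 and 0.771 against 1.74 and 1.34 TPM). COBL9 was lower in sos2-2 (2.67, 2.58 and 2.67 against 1.66 and 1.06 TPM), also without overlap.

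The most abundant family was miR159, whose targets are GAMYB-like MYB genes, with a summed level of 14869 to 21064 RPM per library and a mean of 18461 RPM. Second was miR396, which targets growth-regulating factor (GRF) genes, with a mean of 6344 RPM. The leaf polarity families miR166 and miR165 had means of 5250 and 2375 RPM, and miR167 lay between them at 3518 RPM. Over the 12 libraries, miR159 shared no value with the next family, the ranges of miR396 and miR166 overlapped, and so did those of miR167 and miR165. The jagged-leaf family miR319 averaged 1147 RPM. The smaller families, in order of mean, were miR393 at 447 RPM, miR172 at 322 RPM, miR394 at 246 RPM, miR160 at 225 RPM, miR171 at 178 RPM and miR164 at 152 RPM, and the ranges of neighbours among them overlapped.

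Single rows spanned a wider range than families. The row miR159a lay between 8064 and 11307 RPM and was the highest of all. Rows at 1000 RPM or more numbered 8, and 6 rows had means under 10 RPM. The leading rows of the other families were miR396b-5p (mean 3730 RPM), miR167a-5p (1246 RPM), miR165b (1171 RPM), miR166a-3p (827 RPM), miR319a (454 RPM), miR393b-3p (413 RPM), miR172b-3p (132 RPM), miR394a (125 RPM), miR171a-5p (78.3 RPM), miR160a-5p (59.7 RPM) and miR164b-5p (52.6 RPM). If reads were divided among rows of identical sequence, such as the 7 miR166 guide rows, a single row understates its molecule. If each read was instead counted in every such row, the family sums overstate it, and the order of families by sum depends on this.

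**Figure D1:**
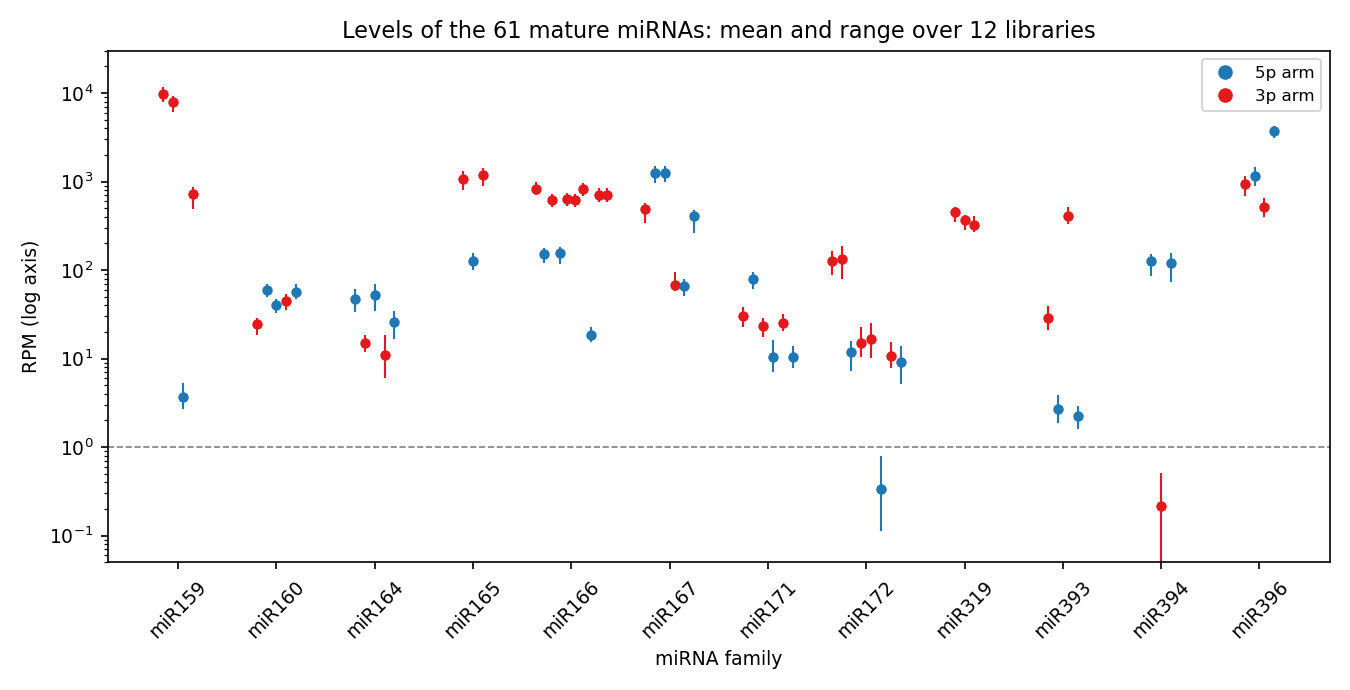
RPM on a log axis for the 61 mature miRNAs by family. Points are means and bars the range over 12 libraries (blue, 5p arm; red, 3p arm, by position in the hairpin), and the dashed line is 1 RPM; the bar of miR394b-3p, listed at 0 in 1 library, runs to the axis. The miR159 guides are highest at 9786 and 7943 RPM, and miR172d-5p and miR394b-3p lie below the line.

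Guide and passenger arms differed by up to 3 orders of magnitude. Both arms were listed for 22 hairpins, and the 3p arm had the higher mean in 13 of them. For miR159b the 3p guide was 2186-fold above the 5p arm (7943 against 3.63 RPM). In miR394b the 5p guide was 557-fold above the 3p arm (120 against 0.216 RPM). That guide has the mature sequence of miR394a, so its reads cannot be placed at 1 hairpin by sequence.

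Some hairpins were nearly balanced. The arms of miR167c had means of 66.0 RPM (5p) and 68.4 RPM (3p), and those of miR396a had 1156 and 938 RPM. At miR172e the 3p guide was 1.15-fold above the 5p arm, whereas miR172b had an 11.1-fold excess of the guide. The 5p rows of miR172e and miR172b share 1 mature sequence. Their reads cannot be placed at either hairpin by sequence, so the contrast between these hairpins depends on how reads were placed.

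In miR393 and miR171a the row with the higher level was not the arm whose pairing with the family's known targets is best described. The miR393 arm that pairs with the auxin receptor mRNAs is 5p, at 2.72 RPM for miR393a and 2.26 RPM for miR393b, and the 3p arms averaged 28.8 and 413 RPM, so that miR393b-3p was 182-fold above its 5p arm. Both 5p rows share 1 mature sequence, so this fold depends on how their reads were placed. The miR171a-3p guide of the HAIRY MERISTEM (HAM) genes averaged 30.4 RPM, and its 5p arm was 2.57-fold higher at 78.3 RPM. In miR171b and miR171c the 3p guide was the higher arm, by 2.23-fold and 2.46-fold, and these 3p rows likewise share 1 mature sequence.

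A single limma fit across all 293 tested miRNAs gave 5 comparisons. These were salt in wild type, salt in sos2-2, the genotypes on MS, the genotypes in NaCl (both as sos2-2 minus wild type), and the interaction, in which the wild-type salt response is subtracted from that of the mutant. Calls below are rows whose p, adjusted by the Benjamini-Hochberg method, was under 0.05. The labels do not tell whether the replicates of a group were grown apart, and a p-value therefore measures only how far libraries vary, possibly for technical reasons. The median log2 change of all tested miRNAs was 0.10, −0.04, 0.01, −0.14 and −0.15 in these comparisons in that order, and every log2 change below is given relative to the median miRNA (or gene, or arm ratio) while its p-value was computed without removing that median. In bulk seedlings, fewer cells of a type and less RNA per cell cannot be told apart.

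Few developmental miRNAs were called in any comparison. With salt in wild type, limma called 0 of the 59 rows, against 4.44% of all tested miRNAs, with 9 rows at an unadjusted p under 0.05 (17.4% of all reached this) and 1 row called by edgeR. Salt in sos2-2 gave 1 lower row (3.75% of all). On MS, 1 row was higher in sos2-2 (4.44% of all). In NaCl the genotypes gave 0 calls in limma (3.41% of all), 9 rows at an unadjusted p under 0.05 (60 of all 293) and 0 calls in edgeR. The interaction gave 0 calls in limma (0.0% of all), 1 row at an unadjusted p under 0.05 (6.14% of all) and 0 calls in edgeR.

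The call rules below gave more calls among all miRNAs in every comparison but the interaction. Among these rows, median centring and edgeR gave more calls in most comparisons, and the replicate number as a block gave the same counts as the main fit. After median centring, in which each library's median log2 value is removed, limma called 1, 3, 3, 1 and 0 of the 59 rows in the order of comparisons above, against 5.46%, 12.6%, 7.17%, 6.14% and 0.0% of all tested miRNAs. The quasi-likelihood test of edgeR on whole reads recovered from the RPM called 1, 5, 4, 0 and 0, against 6.83%, 16.0%, 7.85%, 4.44% and 0.0%. With the replicate number as a block, limma called 0, 1, 1, 0 and 0, against 5.12%, 8.53%, 6.48%, 5.8% and 0.0%.

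Their spread of changes can be set beside that of all tested miRNAs. With salt in sos2-2 the interquartile range of log2 changes was 0.191 for the 59 rows and 0.331 for all 293. Between genotypes in NaCl it was 0.104 and 0.239. With salt in wild type it was nearly equal, 0.222 and 0.237. Rows of identical mature sequence can repeat the same molecules, and rows differ widely in abundance. The part of either in these ranges was not tested. Medians of the 59 rows, relative to all, lay between −0.03 and 0.02 in the 5 comparisons.

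**Figure D2:**
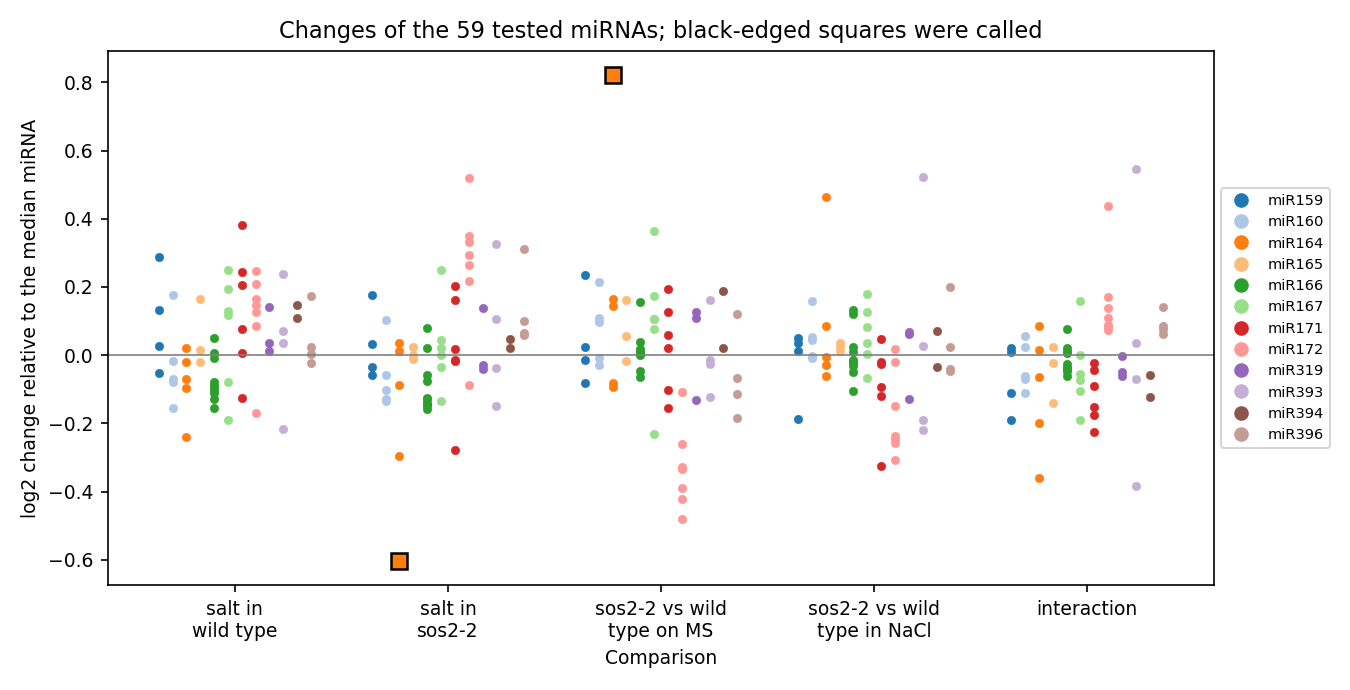
The log2 change of each of the 59 tested miRNAs relative to the median of all tested miRNAs (y) in the 5 comparisons (x), coloured by family. Black-edged squares are the 2 calls, both miR164c-3p, at 0.82 for sos2-2 against wild type on MS and −0.60 for salt in sos2-2. The miR172 rows, of which most share a mature sequence with another, all lie below 0 on MS.

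The called row in both cases was miR164c-3p, the arm opposite to the miR164c guide (chromosome 5, 9852747 to 9852767, plus strand), for which no target is described here. Wild type had 6.17, 11.9 and 9.44 RPM on MS and 7.30, 8.02 and 8.65 RPM in NaCl. The mutant had 16.6, 17.9 and 15.4 RPM on MS and 10.3, 12.0 and 8.79 RPM in NaCl. The 3 sos2-2 libraries on MS thus stood above the other 9 without overlap.

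Its mean on MS was 16.6 ± 1.24 RPM in sos2-2 and 9.16 ± 2.85 RPM in wild type (SD, n = 3), a log2 difference of 0.82 (SE 0.17, adjusted p = 0.00819 in limma, 0.00254 in edgeR). Without wild type on MS, replicate 1, which was also the library with the least listed miRNA, the adjusted p was 0.0504, and the row was called in the other 11 omissions of 1 library. Salt lowered it in sos2-2 by a log2 of −0.60 (SE 0.17, adjusted p = 0.0381 in limma, 0.00804 in edgeR), to 10.3 ± 1.58 RPM. This second call held in 7 of 12 omissions, and the adjusted p reached 0.188 without sos2-2 in NaCl, replicate 3. With salt in wild type it was at 7.99 ± 0.677 RPM, with a log2 change of −0.24 and an adjusted p of 0.785. In NaCl the 3 sos2-2 values still lay above the 3 wild-type values, with a log2 difference of 0.46 and an adjusted p of 0.294, which became 0.0295 after median centring. The difference between its salt responses was −0.36 with an adjusted p of 0.583, so the responses were not shown to differ. The shoot marker RBCS1A was lower in the mRNA libraries of sos2-2 on MS than in those of wild type on MS (4046 and 3017 against 8438, 6947 and 9154 TPM), while LHCB1.1 and LHCB2.1 overlapped, and the part of these markers in the miR164c-3p value was not tested.

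The guide of the same hairpin, miR164c-5p, was not called. It had 17.2, 33.2 and 24.7 RPM in wild type on MS and 26.7, 28.2 and 26.5 RPM in sos2-2 on MS, with overlapping groups. Its log2 difference on MS was 0.15 (SE 0.19, adjusted p = 0.845). The guides miR164a and miR164b-5p, which share 1 mature sequence, lay between 34.3 and 67.2 RPM, and their groups overlapped in all comparisons.

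The other miR164 passenger arm, miR164b-3p, had values of the same order as miR164c-3p. In sos2-2 it had 18.0, 16.3 and 16.4 RPM on MS and 12.3, 15.3 and 12.0 RPM with NaCl, without overlap. The log2 change was −0.30 (adjusted p = 0.154 in limma and 0.0469 in edgeR). Summed over both loci, the 3p arms of miR164 had 19.4, 27.4 and 25.2 RPM in wild type on MS and 34.5, 34.2 and 31.8 RPM in sos2-2 on MS, a log2 difference of 0.47 (adjusted p = 0.0629 in limma and 0.00582 in edgeR).

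The miR172 family acts in the change from juvenile to adult growth and in flowering by lowering AP2-type repressors. On MS all 7 tested rows were below the median miRNA in sos2-2, between −0.48 and −0.11, and 0 were called by limma. The rows miR172a and miR172b-3p share a mature sequence, as do miR172c and miR172d-3p, and miR172b-5p and miR172e-5p. They are therefore not 7 independent observations. The leading row, miR172b-3p, had 122, 158 and 136 RPM in wild type on MS and 111, 80.9 and 109 RPM in sos2-2 on MS. In NaCl it had 171.05, 180 and 148 RPM in wild type and 116, 129 and 121 RPM in sos2-2. The genotypes did not overlap on either medium, with sos2-2 the lower.

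For miR172b-3p the log2 difference was −0.48 on MS (SE 0.14, adjusted p = 0.0568, which became 0.0248 after median centring and 0.0178 in edgeR) and −0.31 in NaCl (adjusted p = 0.0804). Without sos2-2 on MS, replicate 2, its lowest library, the adjusted p on MS was 0.412. The row miR172a has the same mature sequence, and its log2 difference on MS was −0.33 (adjusted p = 0.365 in limma and 0.0346 in edgeR). Both rows can count the same molecules and are not independent. The row miR172c, at 10.6 to 21.9 RPM, had log2 differences of −0.33 on MS and −0.26 in NaCl (adjusted p = 0.564 and 0.233).

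With salt in sos2-2, 6 of the 7 rows were above the median miRNA, up to 0.52 for miR172e-5p, and 0 were called. That passenger arm had 9.79, 5.64 and 5.32 RPM on MS and 6.99, 13.6 and 9.54 RPM in NaCl, with overlapping groups (adjusted p = 0.176).

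**Figure D3:**
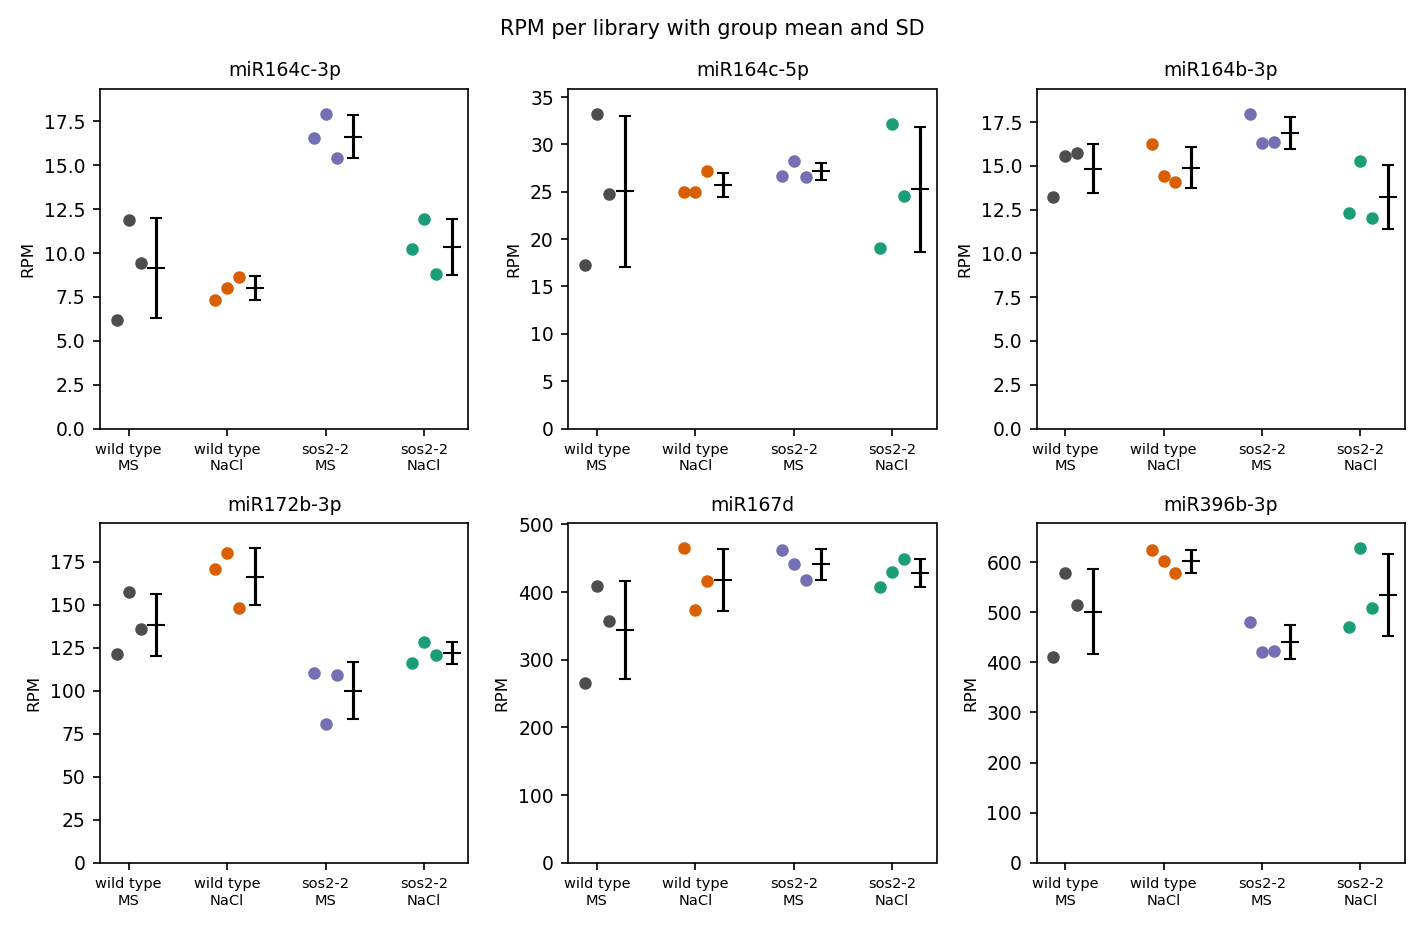
RPM per library for 6 miRNAs in the 4 groups; points are libraries and the bar is the group mean with SD (n = 3). The sos2-2 libraries on MS are highest for miR164c-3p (15.4 to 17.9 RPM) and lowest for miR172b-3p (80.9 to 111 RPM), and the miR164c-5p groups overlap.

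Rows of miR165 and miR166, the families that restrict HD-ZIP III mRNAs to the upper side of leaves and to the inner stele, had small changes. None of 13 rows was called in any comparison by limma or edgeR, and their smallest adjusted p-values were 0.318 for miR165 and 0.356 for miR166. The row miR166a-3p had 728, 958 and 879 RPM in wild type on MS and 838, 849 and 881 RPM with NaCl. In sos2-2 it had 834, 873 and 785 RPM on MS and 732, 833 and 736 RPM with NaCl, so that the NaCl groups of the genotypes did not overlap and the others did. Its log2 changes lay between −0.09 and 0.02 in the 5 comparisons. For miR165b they lay between −0.02 and 0.02. The exception under another scaling was miR166g, singled out after its values were seen, whose salt change in wild type was −0.16 (adjusted p = 0.925, and 0.0402 after median centring).

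Auxin is sensed through TIR1 and the AFB receptors and read out by auxin response factors (ARF), and miR160, miR167 and miR393 act on these 2 layers. In miR160 no row was called, and the changes lay between −0.15 and 0.22. The leading row, miR160a-5p, spanned 50.6 to 68.3 RPM. In miR167, which targets ARF6 and ARF8, miR167d was singled out after its values were seen. It had 266, 410 and 357 RPM in wild type on MS and 463, 441 and 418 RPM in sos2-2 on MS, without overlap, and a log2 difference of 0.36 (adjusted p = 0.151 in limma, 0.0372 after median centring and 0.0178 in edgeR). Without wild type on MS, replicate 1, the adjusted p was 0.419.

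The passenger miR167a-3p had 347, 511 and 425 RPM in wild type on MS and 551, 549 and 520 RPM in wild type in NaCl, without overlap. Its log2 change with salt was 0.25 in wild type (SE 0.13, adjusted p = 0.134 in limma and 0.0350 in edgeR). In sos2-2 it was also 0.25 (adjusted p = 0.387 in limma, 0.0458 after median centring and 0.0141 in edgeR), with 466, 456 and 427 RPM on MS and 509, 537 and 514 RPM in NaCl.

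Both arms of miR393a were among the largest interaction values, in opposite directions. The guide miR393a-5p had 2.15, 2.22 and 2.82 RPM in wild type on MS and 3.80, 3.19 and 2.902 RPM with NaCl. In sos2-2 it had 3.36, 2.88 and 2.29 RPM on MS and 2.55, 2.60 and 1.92 RPM with NaCl. The wild-type groups did not overlap and the sos2-2 groups did. The arm miR393a-3p had 27.6, 26.7 and 28.7 RPM in wild type on MS and 32.5, 21.7 and 23.5 RPM with NaCl, and 33.3, 24.5 and 25.2 RPM in sos2-2 on MS and 37.9, 28.4 and 35.3 RPM with NaCl, with overlap in all comparisons. The interaction of miR393a-5p was −0.38 and that of miR393a-3p was 0.54 (adjusted p = 0.583 and 0.662).

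Among the remaining families no row was called by limma. With salt in wild type, miR171b-5p had the largest value of the 59 rows, with 8.70, 10.5 and 9.71 RPM on MS and 13.7, 15.8 and 12.2 RPM with NaCl, without overlap, and a log2 change of 0.38 (SE 0.15, adjusted p = 0.0773 in limma and 0.107 in edgeR). In NaCl its log2 difference between sos2-2 and wild type was −0.33 (adjusted p = 0.1002), with 8.21, 10.2 and 11.1 RPM. The passenger miR159b-5p had 2.95, 3.77 and 3.15 RPM in wild type on MS and 5.20, 3.68 and 5.09 RPM in NaCl (log2 change 0.29, adjusted p = 0.167).

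The guides of miR159, miR319, miR394 and miR396 had small values. Their leading rows miR159a, miR319a, miR394a and miR396b-5p had log2 changes between −0.11 and 0.13 in the 5 comparisons. The jagged-leaf guide miR319a had 355, 508 and 428 RPM in wild type on MS and 462, 483 and 460 RPM in sos2-2 on MS, with overlap. The passenger miR396b-3p, singled out after its values were seen, had 480, 421 and 422 RPM in sos2-2 on MS and 471, 627 and 508 RPM in NaCl, with overlap, and a log2 change with salt of 0.31 (adjusted p = 0.296 in limma, 0.0264 after median centring and 0.0119 in edgeR).

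Loci of a family can share reads, so each family was also summed by arm as named (5p, 3p or no arm in the name). This gave 30 sums of the 12 families. Rows without an arm in the name can have the mature sequence of a named arm, so the same molecules can enter more than 1 sum. In limma 0 of 30 were called in each of the 5 comparisons, against 4.41%, 1.96%, 1.47%, 4.41% and 0.0% of all 204 family arms with such a mean. At an unadjusted p under 0.05 there were 5, 2, 3, 4 and 2 of them, against 17.6%, 15.2%, 11.3%, 24.0% and 6.86% of all. By edgeR the counts were 0, 2, 3, 0 and 0, against 6.37%, 11.8%, 6.86%, 5.39% and 0.0% of all. These calls were the miR164 3p sum with salt in sos2-2 and on MS, the miR167 3p sum with salt in sos2-2, and the miR172 3p and miR172 no-arm sums on MS. The no-arm rows miR172a and miR172c have the mature sequences of miR172b-3p and miR172d-3p, so these miR172 sums are not independent. Median centring gave 0, 1, 2, 0 and 0 calls, against 4.9%, 6.86%, 6.37%, 6.37% and 0.0%, and the block gave 0, 1, 1, 0 and 0, against 5.39%, 4.9%, 4.41%, 6.86% and 0.0%.

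The ratio of the 2 arms of a hairpin, log2((3p RPM + 1)/(5p RPM + 1)), cancels most of the effect of a library's total. For 20 hairpins of the 12 families both arms averaged at least 1 RPM, of 69 hairpins in the table. Limma called 0 ratios with salt in wild type (5.8% of all 69), with 2 at an unadjusted p under 0.05 (17.4% of all), and 1 with salt in sos2-2 (5.8%). Between genotypes it called 2 on MS (5.8%) and 1 in NaCl (2.9%). The interaction gave 0 (0.0%), with 1 at an unadjusted p under 0.05 (4.35% of all). With the replicate block the counts were 1, 2, 2, 1 and 1, against 8.7%, 7.25%, 8.7%, 5.8% and 1.45% of all ratios. No count test was run on ratios.

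The miR164c ratio was −1.35, −1.41 and −1.30 in wild type on MS and −1.65, −1.52 and −1.55 in wild type in NaCl. In sos2-2 it was −0.66, −0.63 and −0.75 on MS and −0.83, −1.36 and −1.38 in NaCl. The 3 sos2-2 libraries on MS were the highest, and the 5p guide exceeded the 3p arm in all 12 libraries. The ratio was higher in sos2-2 on MS by a log2 of 0.67 (SE 0.13, adjusted p = 0.00927), and this call held in 12 of 12 omissions of 1 library, with a highest adjusted p of 0.0448 without wild type on MS, replicate 1. Salt lowered the ratio in sos2-2 by a log2 of −0.55 (adjusted p = 0.0313, up to 0.159 without sos2-2 in NaCl, replicate 3, and called in 5 of 12 omissions).

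At miR167c the difference had the other sign. Its ratio was 0.27, 0.36 and 0.14 in wild type on MS and −0.15, −0.18 and −0.12 in sos2-2 on MS. In NaCl it was 0.04, 0.18 and 0.21 in wild type and −0.04, −0.05 and −0.06 in sos2-2. The 3p arm thus exceeded the 5p guide in all 6 wild-type libraries and in none of the 6 of sos2-2. The difference was called on MS (−0.41, SE 0.08, adjusted p = 0.00927, called in 12 of 12 omissions) and not in NaCl (−0.20, adjusted p = 0.167). The arms themselves had means of 76.3 ± 14.4 RPM (3p) and 63.6 ± 9.83 RPM (5p) in wild type on MS, and 64.8 ± 5.32 and 72.2 ± 7.26 RPM in sos2-2 (SD, n = 3).

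In NaCl the miR393a ratio was 2.81, 2.44 and 2.65 in wild type and 3.45, 3.03 and 3.64 in sos2-2, without overlap. It was higher in sos2-2 by a log2 of 0.73 (SE 0.15, adjusted p = 0.0151, up to 0.0834 without sos2-2 in NaCl, replicate 3). The 5p arm averaged under 5 RPM, and this hairpin leaves the test when both arms must average 5 RPM. The 5p row also shares its mature sequence with miR393b-5p, so the ratio cannot be tied to the miR393a hairpin by sequence. On MS the ratio was 3.19, 3.11 and 2.96 in wild type and 2.98, 2.72 and 3.00 in sos2-2. With salt its log2 change was −0.45 in wild type (adjusted p = 0.105) and 0.45 in sos2-2 (adjusted p = 0.116), and the interaction was 0.93 (SE 0.22, adjusted p = 0.0762). With the replicate number as a block these adjusted p-values became 0.0450, 0.0394 and 0.0207.

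**Figure D4:**
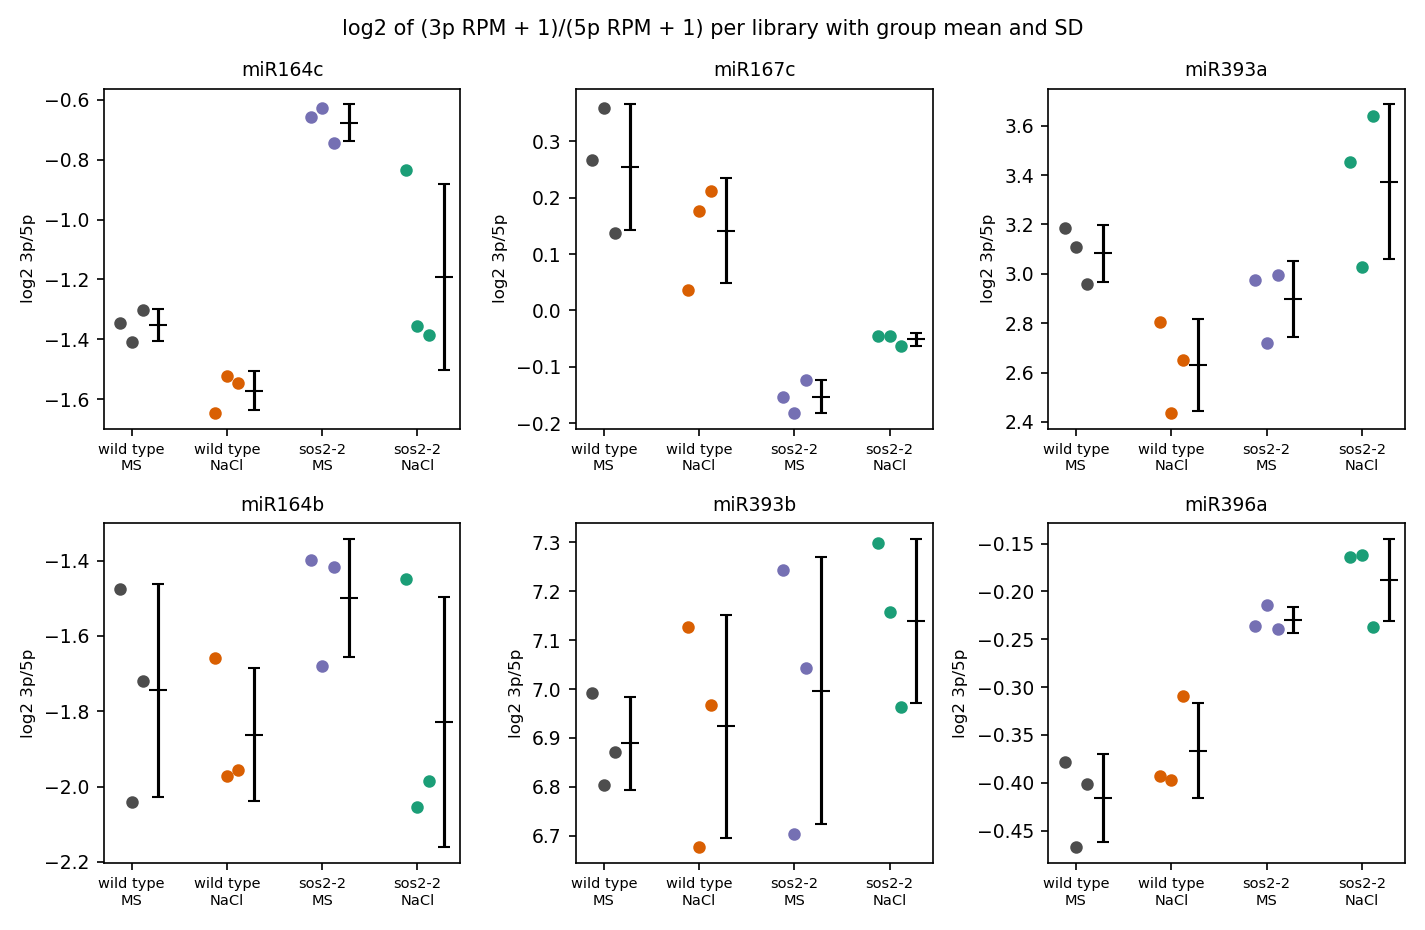
The log2 of (3p RPM + 1)/(5p RPM + 1) per library for 6 hairpins, with group mean and SD (n = 3); axes differ between panels and do not start at 0. The sos2-2 libraries on MS stand apart for miR164c (−0.75 to −0.63), and for miR167c all sos2-2 libraries lie below 0 and all wild-type libraries above it.

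The mRNA table holds the known targets of these families. Of 53 listed targets, 41 averaged at least 1 TPM, and 12 did not, among them the flower and pollen genes MYB81, MYB97, MYB101, MYB104, MYB120 and DUO1 and the boundary genes CUC1 and CUC2. For each listed target the best ungapped complement of a guide in its annotated mRNAs was taken without a cutoff. Every target thus gave a stretch, and a stretch is a description and no proof of cleavage. That of IAR3 had 6 mismatches, and those of GRF1, GRF2, GRF3, GRF4, GRF7 and GRF8 had 6 mismatches and 1 G-U pair each. Capitals below mark bases that form a Watson-Crick pair with the guide, written 5′ to 3′ in the mRNA sense, for targets that were called and, as an example of full pairing, HAM1 (chromosome 2, 18619128 to 18619148, minus strand, exon 1), where miR171a-3p pairs with 0 mismatches.
HAM1: GAUAUUGGCGCGGCUCAAUCA
TCP4: gaGGgGucCCCUUCAGUCCAg
ATHB8: cuGGgAUGAAGCCUGGUCCGg
ORE1: cuCACGUGaCCUGCUUCUCCg
SNZ: uUGuAGCAUCAUCAgGAUUCc
ARF10: aGGaAUACAGGGAGCCAGGCA
TIR1: GagaCAAUGCGAUCCCUUUGGA
The TCP4 stretch lies in coding sequence of exon 2 (chromosome 3, 5063300 to 5063320, plus strand) and faces miR319a. The ATHB8 stretch joins exons 5 and 6, with the intron inside its coordinates (chromosome 4, 15866872 to 15866974, minus strand), and faces miR166a-3p. Its capitals hold for that guide only, as pairing with the miR165 guides was not scored. The SNZ stretch lies outside the coding sequence in exon 6 (chromosome 2, 16389066 to 16389086, minus strand), and those of ORE1, ARF10 and TIR1 are coding.

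The number of targets called was small with all libraries and depended on which were kept. Salt lowered 1 of 41 in wild type (9.41% of the 16564 tested genes were called) and raised 1 in sos2-2 (6.59%). On MS 2 were lower in sos2-2 (2.79%). In NaCl 5 were higher and 1 was lower in sos2-2 (19.3%), and the interaction gave 0 in limma (2.04%) with 10 targets at an unadjusted p under 0.05 (24.8% of all genes). Without wild type in NaCl, replicate 1, the counts were 11, 2, 6, 14 and 11 targets in the 5 comparisons, against 25.9%, 8.79%, 8.65%, 33.6% and 21.5% of all genes. Without replicate 2 of that group they were 0, 1, 1, 2 and 0 (3.5%, 5.77%, 1.89%, 10.6% and 1.61%), and without replicate 3 they were 0, 1, 5, 2 and 0 (2.65%, 7.66%, 4.94%, 6.75% and 1.07%). The median gene changed by −0.21, 0.16, −0.05, 0.32 and 0.39 in the 5 comparisons on the deposited scale. After median centring the counts were 2, 2, 8, 9 and 0, against 10.2%, 8.82%, 10.3%, 10.6% and 0.749% of all genes, and in NaCl the split became 1 higher and 8 lower, so the direction of the target list there depends on the scaling. The replicate block gave 2, 1, 2, 7 and 0 target calls, against 10.6%, 6.53%, 2.05%, 20.8% and 2.64% of all genes. No edgeR test was run on the TPM values.

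The lower genes on MS were TCP4 and TCP3, which encode transcription factors of leaf maturation and are targets of miR319. TCP4 (AT3G15030) had 89.3, 58.3 and 77.5 TPM in wild type on MS and 35.7 and 24.97 TPM in sos2-2 on MS. TCP3 (AT1G53230) had 83.2, 52.4 and 70.9 TPM and 32.8 and 21.3 TPM. Neither gene's groups overlapped.

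TCP4 was lower by a log2 of −1.22 (SE 0.28, adjusted p = 0.0252) and TCP3 by −1.27 (SE 0.34, adjusted p = 0.0445). These calls held in 7 and 5 of 11 omissions of 1 library. Their adjusted p-values were 0.268 and 0.339 without sos2-2 on MS, replicate 2, which leaves that group 1 library. All 5 listed TCP targets lay below the median gene on MS, from −1.27 to −0.36. Of all 41 tested targets 28 lay below it, among them all 5 tested targets of miR396 and all 3 of miR171. The guides miR319a, miR319b and miR319c had log2 differences of 0.13, 0.11 and −0.13 and were not called. TCP3 overlaps a gene on the opposite strand, and use of the strand in counting is not stated. The summed shoot markers, mostly RBCS1A, were lower in sos2-2 on MS than in wild type on MS without overlap, while LHCB1.1 and LHCB2.1 overlapped, and their part in the TCP values was not tested.

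The single lower target between genotypes in NaCl was ATHB8, an HD-ZIP III gene of vascular development. It had 12.3, 13.3 and 9.99 TPM in wild type in NaCl and 7.35, 7.14 and 8.20 TPM in sos2-2 in NaCl, without overlap. Its log2 difference was −0.90 (SE 0.19, adjusted p = 0.0406, and 0.0004 after median centring, called in 6 of 11 omissions and up to 0.138 without wild type in NaCl, replicate 2). On MS it had 14.4, 10.1 and 13.6 TPM against 7.80 and 6.62 TPM, a log2 difference of −0.67 (adjusted p = 0.0659, and 0.0105 after median centring). REV, PHB, PHV and ATHB15, the other HD-ZIP III genes, had values between −0.08 and 0.03 in NaCl and between 0.05 and 0.42 on MS, and limma called none of them.

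Higher in sos2-2 in NaCl were ORE1, ARF10, TIR1, AFB3 and CIL2. ORE1 (AT5G39610), a NAC factor of leaf senescence and a target of miR164, had 5.15, 3.11 and 2.51 TPM in wild type in NaCl and 8.49, 12.5 and 12.3 TPM in sos2-2, without overlap. The log2 difference was 1.103 (SE 0.25, adjusted p = 0.00104, and 0.0105 after median centring), called in 11 of 11 omissions of 1 library. The guide miR164b-5p had a log2 difference of −0.06 there (adjusted p = 0.562). Shoot marker sums, mostly RBCS1A, overlapped between the genotypes in NaCl, as did root marker sums, mostly PYK10. LHCB1.1 (322, 336 and 204 against 358, 766 and 444 TPM) and LHCB2.1 (227, 202 and 136 against 416, 596 and 341 TPM) were higher in sos2-2 without overlap. EXPA7 was also higher (1.07, 0.954 and 0.814 against 2.02, 2.38 and 1.71 TPM), while COBL9 overlapped. The part of these markers in the ORE1 value was not tested.

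The other 4 calls were lost after median centring. ARF10, a target of miR160, had 1.06, 1.87 and 0.858 TPM in wild type in NaCl and 2.56, 2.62 and 2.51 TPM in sos2-2, a log2 difference of 0.36 (adjusted p = 0.0181, and 0.260 after centring). The auxin receptor TIR1 had 7.16, 4.24 and 3.86 TPM and 8.27, 7.57 and 8.35 TPM, a difference of 0.30 (adjusted p = 0.0389, and 0.250 after centring). For the receptor AFB3 and the basic helix-loop-helix gene CIL2, both targets of miR393, the differences were 0.25 and 0.31 (adjusted p = 0.0431 and 0.0236, and 0.327 and 0.137 after centring). These 4 calls were also lost without wild type in NaCl, replicate 3, with adjusted p between 0.0956 and 0.179, and without sos2-2 in NaCl, replicate 3, with adjusted p between 0.0511 and 0.127. ARF10 was called in 9 of 11 omissions of 1 library, CIL2 in 7, TIR1 in 5 and AFB3 in 2. AFB3 overlaps 2 genes on the opposite strand.

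Salt raised NAC079 (AT5G07680), a target of miR164, in sos2-2, from 1.43 and 1.33 TPM to 3.02, 3.47 and 4.46 TPM, a log2 change of 0.79 (SE 0.23, adjusted p = 0.0156, called in 8 of 11 omissions, up to 0.146 without sos2-2 on MS, replicate 2). In wild type it had 1.81, 0.828 and 2.18 TPM on MS and 3.33, 2.24 and 2.52 TPM with NaCl (log2 change 0.74, adjusted p = 0.103, and 0.0263 after median centring). Salt lowered SNZ (AT2G39250), an AP2-type floral repressor and target of miR172, in wild type, from 6.62, 9.76 and 6.23 TPM to 4.36, 3.07 and 2.73 TPM, without overlap. The log2 change of SNZ was −0.75 (SE 0.24, adjusted p = 0.0206, and 0.102 after median centring, called in 8 of 11 omissions, up to 0.120 without wild type in NaCl, replicate 3).

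Most targets with the highest level of their family were not called in any comparison. These were MYB33 (2.83 to 6.32 TPM over the 11 libraries), ARF16 (1.84 to 5.002 TPM), NAC1 (6.10 to 11.4 TPM), ARF6 (3.80 to 7.06 TPM), HAM1 (4.22 to 11.7 TPM), the floral repressor TOE1 (11.4 to 25.3 TPM), the F-box gene LCR (3.69 to 7.11 TPM) and CIB4 (4.87 to 10.9 TPM). TOE1 had 13.9 ± 2.21 TPM in wild type on MS and 19.2 ± 3.42 TPM in wild type in NaCl, 19.5 ± 1.15 TPM (n = 2) in sos2-2 on MS, and 24.4 ± 1.12 TPM in sos2-2 in NaCl (SD, n = 3 where not given), and its log2 change with salt in wild type was 0.64 (adjusted p = 0.159, and 0.0418 after median centring). The GRF targets of miR396 gave no call in limma on the deposited scale, and after median centring GRF2 and GRF4 were lower in sos2-2 on MS (−0.73 and −0.84, adjusted p = 0.0119 and 0.0288); they were singled out after their values were seen.

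**Figure D5:**
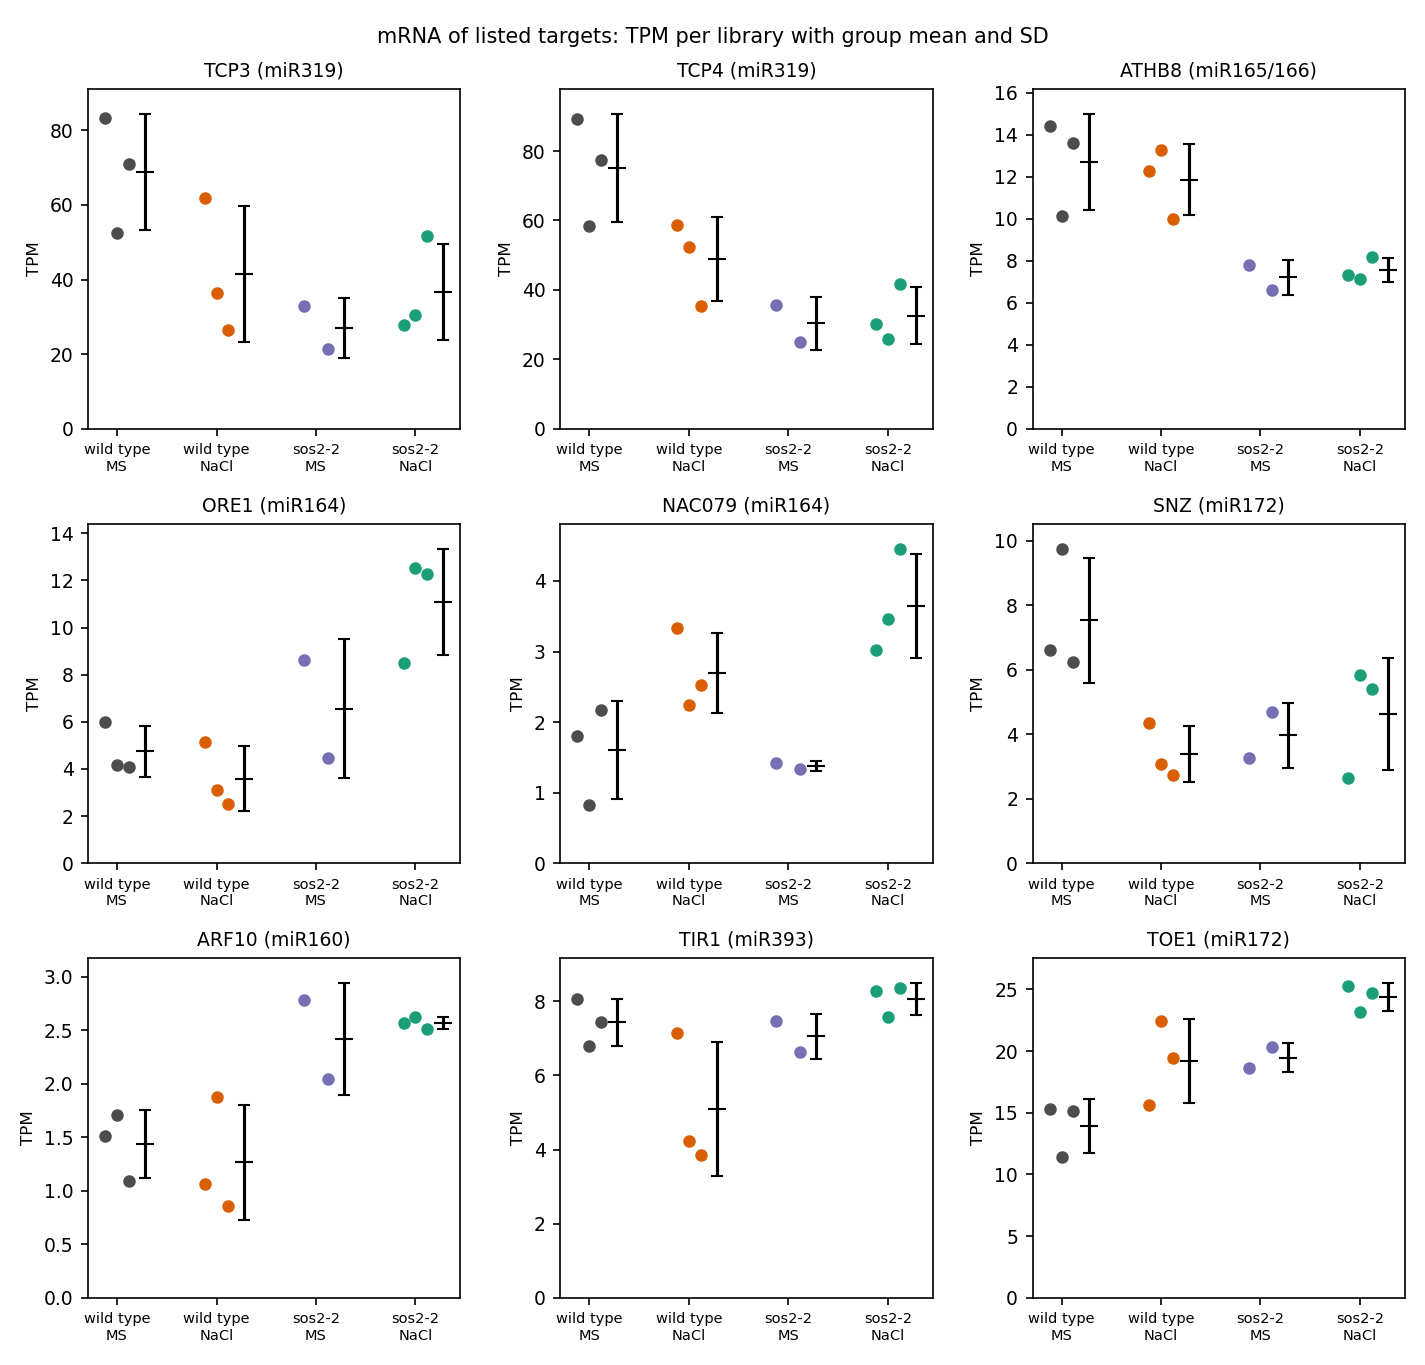
TPM per library for 9 listed targets in the 4 groups, with the miRNA family in brackets; points are libraries and the bar is the group mean with SD (n = 3, and 2 for sos2-2 on MS). The sos2-2 libraries on MS are below all wild-type libraries on MS for TCP3, TCP4 and ATHB8, and for ORE1 all sos2-2 libraries in NaCl (8.49 to 12.5 TPM) are above those of wild type.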

How the data were processed

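Small RNA (12 libraries) and mRNA (11 libraries) tables were used as deposited by the authors, the former in RPM (reads per 1000000) and the latter in TPM (transcripts per 1000000). Per the submitters' processing notes the tools were kallisto 0.46.2, sleuth 0.30.0, cutadapt and featureCounts 1.6.4 with TAIR10; their roles and the aligner are not given in the sources used here, nor is strand use, so targets overlapping a gene on the other strand (16 of 53) are uncertain. RPM of up to 200 reads came out whole within 0.1 read in 2737 of 2737 values. RPM intervals are not given, and precision is the spread between libraries.

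From these values, transcripts were summed per gene, and log2(value + 1) of features with a mean of at least 1 was fitted with limma 3.58.1 (R 4.3.3) over all groups, with Benjamini-Hochberg adjustment over all tested features. A fold on this scale understates changes of low features. Alternatives were a pseudocount of 0.5, no filter, both arms at 5 RPM for ratios, median centring, edgeR 4.0.16 with TMM on recovered reads, the replicate block and each library left out. The fits were tested on simulated data. Small RNA columns were assigned to groups by name and replicates by the number in it.

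Named miRNAs were the most abundant row of each family, called rows and the 3 largest changes per comparison; named targets were the most abundant of each family and called ones. All other rows and genes given with values (such as miR164a, miR164c-5p, miR172a, miR319b and miR319c) were chosen after their values were seen. Members, target and marker lists were chosen with earlier results of these data known. Mature sequences and coordinates are from RefSeq TAIR10.1 (61 of 61 rows matched). Same-numbered wild-type small RNA libraries on MS and in NaCl correlated in their deviations from the group means at 0.271, 0.215 and 0.172. No other comparison with 3 pairs had all pairs above 0.1. These values do not establish a pairing, and the main fit did not pair libraries. The replicate number entered only in an alternative fit, as a block over all groups.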

Additional observations from a re-analysis of the deposited data

How the results depend on the processing

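Over the alternatives run, the 750 single results on tested miRNAs, arm sums, ratios and targets gave 12230 values. Of these, 71 lost a call, 107 gained one (20 for miRNAs, 19 for arm sums, 12 for ratios and 56 for targets) and 0 called values turned direction. The counts of calls that moved by more than 1.5 times were these. For miRNAs, edgeR gave 1 instead of 0 with salt in wild type, 5 instead of 1 with salt in sos2-2 and 4 instead of 1 on MS; median centring gave 1, 3 and 3, and 1 instead of 0 in NaCl, and without a filter the call with salt in sos2-2 was lost (0). For arm sums, edgeR gave 2 with salt in sos2-2 and 3 on MS, centring 1 and 2, and joining unnamed arms by hairpin position, an alternative chosen after seeing the data, 1 with salt in sos2-2, all against 0. For arm ratios, a minimum of 5 RPM gave 4 instead of 2 on MS and 0 instead of 1 in NaCl, where miR393a leaves the test. For targets, centring gave 2 instead of 1 with salt in either genotype and 8 instead of 2 on MS, and no filter gave 0 in all 3. In NaCl centring gave 9 target calls instead of 6, with 1 higher and 8 lower instead of 5 and 1. Apart from the miR393a loss, the cause was not tested.

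The replicate block gave 1 arm sum call instead of 0 with salt in sos2-2 and on MS; for ratios it gave 1 instead of 0 with salt in wild type, 2 instead of 1 with salt in sos2-2 and 1 instead of 0 for the interaction, and 2 target calls instead of 1 with salt in wild type and 7 instead of 6 in NaCl. The counts of miRNA calls did not change under the block.

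With each library left out in turn, the calls in the order salt in wild type, salt in sos2-2, MS, NaCl and interaction ranged from 0 to 1, 0 to 2, 0 to 3, 0 to 1 and 0 to 0 for miRNAs, from 0 to 1, 0 to 1, 0 to 1, 0 to 1 and 0 to 0 for arm sums, from 0 to 1, 0 to 1, 2 to 3, 0 to 2 and 0 to 1 for ratios, and from 0 to 11, 0 to 2, 0 to 6, 1 to 14 and 0 to 11 for targets, where the highest count came without wild type in NaCl, replicate 1. Groups of 3 libraries (2 for sos2-2 mRNA on MS, 1 when another is left out, which is then assumed to vary like the other groups) limit all tests, and rows under 5 RPM rest on fewer than 100 reads a library.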
